A study of Mus musculus with 8 samples.

Results

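A set of 10 genes that mark the 2 main cell classes of a brain vessel wall were examined in mouse striatum. Among 18138 gene symbols on the array, 6 of them mark endothelial cells (Flt1, Itm2a, Cldn5, Pecam1, Tek and Cdh5) and 4 mark mural cells (Acta2, Tagln, Rgs5 and Pdgfrb). They were taken by symbol, which gave 16 probes, and a probe was followed when its detection p-value was under 0.05 on at least 4 of the 8 bead arrays. The 4 arrays labelled PGC-1α null and the 4 labelled PGC-1α wild type held RNA from whole striatum at postnatal day 30, on a C57BL/6 background, with no other allele or treatment named for either group. PGC-1α, encoded by Ppargc1a, is a transcriptional coactivator of mitochondrial metabolism. The series title speaks of a deletion specific to medium spiny neurons, the projection neurons of the striatum. For genotype the sample labels say only null, so the promoter and cell type of any Cre are not given in the sources used here. Whether each array is a different mouse is not labelled, so the p-values rest on a spread between arrays that could be partly technical.

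A brain capillary is a tube of endothelial cells joined by tight junctions, which form the blood-brain barrier. Endothelial cells read growth factor signals of the VEGF and angiopoietin families through receptor tyrosine kinases. Mural cells wrap this tube. They comprise pericytes on capillaries, which endothelial PDGF-B recruits, and contractile smooth muscle cells on arterioles. In muscle, PGC-1α is known to raise Vegfa and capillary growth through the estrogen-related receptors, and the series compares both genotypes for transcripts that depend on PGC-1α in striatum.

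The arrays had a mean raw intensity of 295 to 499, with 13009 to 13910 probes detected per array. All 8 lay on 1 chip, null and wild-type arrays in separate blocks of positions, so that position and group cannot be told apart. The Ppargc1a probe, detected in every sample, averaged 7.73 ± 0.43 (log2 intensity, SD, n = 4) in null and 7.61 ± 0.38 in wild-type arrays. No source used here says which exons were removed, so this probe checks nothing, and groups are named as labelled. Of 11 medium spiny neuron markers, 8 passed the detection filter, and so did markers of astrocytes, oligodendrocytes and microglia, although the labels name those neurons as the cell type. The mean level of Y-linked genes was high on null replicates 1, 2 and 4 and on wild-type replicate 2. It was low on the other 4 arrays. Not every gene followed: Ddx3y read 10.61 in null replicate 3 and 10.59 in wild-type replicate 4, against 10.52 in wild-type replicate 2. Eif2s3y was detected on 3 of 4 null and 1 of 4 wild-type arrays. By this gene, arrays with male tissue were unevenly split between the groups.

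The sequence around the start site is given for 4 members. Flt1, Itm2a and Acta2 had the largest differences between the groups, none past the threshold, and Cldn5 the smallest. Each window runs from 250 bases before to 50 after the start site, 5′ to 3′ on the gene's strand, from RefSeq on GRCm38.p6. Flt1 lies at chr5:147725962-147726261 (minus strand), Itm2a at chrX:107403311-107403610 (minus), Acta2 at chr19:34255324-34255623 (minus) and Cldn5 at chr16:18776597-18776896 (plus). Capitals mark AGGAAG on either strand, a core bound by ETS factors, which drive endothelial genes. They also mark the exact letters TATAAA, a form of the TATA box. The CArG box of serum response factor, which drives smooth muscle genes, is marked with at most 1 letter of its A/T core replaced.
Flt1: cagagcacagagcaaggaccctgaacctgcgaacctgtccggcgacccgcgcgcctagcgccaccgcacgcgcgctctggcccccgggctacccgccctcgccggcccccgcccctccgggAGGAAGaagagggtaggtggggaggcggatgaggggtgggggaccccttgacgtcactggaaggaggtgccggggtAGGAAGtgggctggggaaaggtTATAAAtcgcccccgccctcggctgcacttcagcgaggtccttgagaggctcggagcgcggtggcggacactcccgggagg
Itm2a: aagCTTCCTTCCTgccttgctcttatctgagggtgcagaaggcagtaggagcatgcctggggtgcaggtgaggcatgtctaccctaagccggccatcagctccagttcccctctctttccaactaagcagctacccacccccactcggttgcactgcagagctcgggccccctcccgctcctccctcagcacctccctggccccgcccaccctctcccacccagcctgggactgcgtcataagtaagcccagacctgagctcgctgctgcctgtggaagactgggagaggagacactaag
Acta2: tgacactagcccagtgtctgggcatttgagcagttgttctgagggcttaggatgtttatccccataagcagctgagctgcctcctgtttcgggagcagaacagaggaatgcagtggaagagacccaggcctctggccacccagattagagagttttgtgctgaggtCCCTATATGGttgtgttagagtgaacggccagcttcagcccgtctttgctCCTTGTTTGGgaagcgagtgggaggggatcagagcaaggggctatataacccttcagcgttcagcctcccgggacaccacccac
Cldn5: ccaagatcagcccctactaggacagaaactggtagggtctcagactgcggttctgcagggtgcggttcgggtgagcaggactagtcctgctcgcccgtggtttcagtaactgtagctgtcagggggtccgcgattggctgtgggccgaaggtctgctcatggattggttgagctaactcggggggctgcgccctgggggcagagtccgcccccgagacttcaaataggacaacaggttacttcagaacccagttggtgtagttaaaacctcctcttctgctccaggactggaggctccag

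Windows were given for 6 of the 10 genes (these 4, Tek and Rgs5). The ETS core occurred in 2 of the 6, at bases -129 and -53 from the start site of Flt1 and, as 2 overlapping matches on the other strand, at -247 and -243 in Itm2a. It occurs in 35.4% of all 32851 promoter windows. A CArG box with at most 1 core letter replaced occurred in 2 of the 6, in Acta2 at -84 and -34 and in Tek at -2, against 9.98% of all windows, and the exact CArG box in 0 of the 6, against 1.63%. The exact letters TATAAA were found in Flt1 alone of the 6, at -31 (13.6% of all windows). Variant forms were not searched for, such as the TATATAA in the Acta2 window, which lies after the annotated start site. All positions count from the annotated start site. The nuclear receptor half-site AGGTCA, which estrogen-related receptors bind, was in 0 of the 6 windows, against 16.3% of all windows on either strand. These matches describe the letters in the windows and identify no bound site.

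All members that could be followed were lower on average in null arrays, by small amounts, and none passed the test. Of the 16 probes, 11 passed the detection filter, standing for 8 genes, and 11 of 11 had a lower mean in null arrays. Across the array 50.9% of the 13413 probes that passed the filter were lower in null arrays. With limma, 0 of 11 were past an adjusted p of 0.05, as were 0% of all probes. The smallest adjusted p among them was 0.70. At an unadjusted p under 0.05, 3 of the 11 were lower in null arrays (Flt1, Itm2a and 1 of 4 Acta2 probes), where 3.7% of all probes were (496), and 0 were higher, where 3.21% of all probes were (430). The groups overlapped for 11 of 11 member probes, while 2.59% of all probes were lower in null arrays without overlap. The median log2 difference over 1 probe per gene was -0.19 for 5 endothelial genes and -0.21 for 3 mural genes, beside -0.0062 for all 10008 genes. In bulk tissue, fewer cells of a type and less RNA per cell cannot be told apart.

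**Figure D1:**
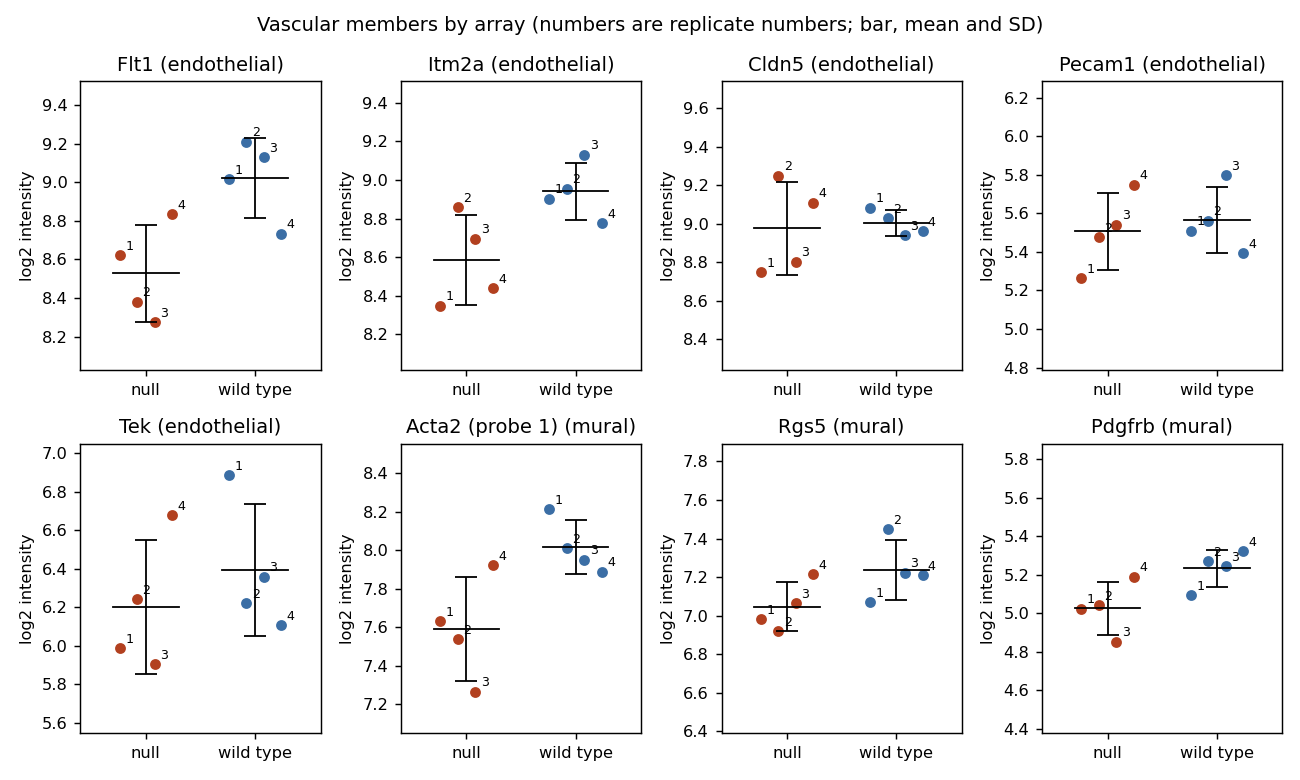
Normalized log2 intensity of the 8 followed member genes on each array, null arrays left and wild-type arrays right, with the replicate number beside each point and the group mean and SD (n = 4) as bars. Each panel spans the same range of log2 units. The groups overlap in every panel. Null replicate 4 lies among the wild-type arrays for Flt1, Tek, Pecam1, Acta2, Rgs5 and Pdgfrb, above them for Cldn5 and below them for Itm2a.

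Among the endothelial growth factor receptors, Flt1 had the largest difference of all members. Flt1 encodes VEGF receptor 1, which binds VEGF-A tightly and acts largely as a decoy that limits signalling through the main receptor, Kdr. Its probe (ILMN_1227926, chromosome 5) was detected on all 8 arrays and read 8.62, 8.38, 8.28 and 8.84 (log2) in null replicates 1 to 4, against 9.02, 9.21, 9.13 and 8.73 in wild-type replicates 1 to 4. The groups met only where null replicate 4 stood above wild-type replicate 4. The difference was -0.49 (SE 0.15, 95% interval -0.83 to -0.16), not past the threshold (limma adjusted p = 0.70, n = 4 per group), and the probe ranked 149 of 13413 by p. Null arrays lay below the wild-type mean in 4 of 4 cases. With 1 array left out it ran between -0.60 (without null replicate 4) and -0.41 (without null replicate 3).

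Tek encodes Tie2, the receptor of the angiopoietins, which keep vessels quiescent. Its probe read 5.99, 6.24, 5.91 and 6.68 in null replicates 1 to 4, against 6.88, 6.22, 6.36 and 6.11 in wild-type replicates 1 to 4. Each group held 1 array well above its other 3, null replicate 4 and wild-type replicate 1, and the ranges overlapped over most of their length. The difference was -0.19 (SE 0.20, limma adjusted p = 0.86), and it came to -0.024 when wild-type replicate 1 was left out and to -0.35 without null replicate 4.

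Among the followed endothelial members, the junction gene Cldn5 and the adhesion gene Pecam1 had the smallest differences. Cldn5 encodes claudin 5, the main tight junction protein of the blood-brain barrier. It read 8.75, 9.25, 8.80 and 9.11 in null arrays, against 9.08, 9.03, 8.94 and 8.96 in wild-type arrays, so the 4 wild-type values sat inside the range of the null values. Its difference was -0.026 (SE 0.14, limma adjusted p = 0.98), with a 95% interval from -0.32 to 0.27, which does not show that the groups were equal. Its sign turned without null replicate 1 (0.050), null replicate 3 (0.031) or wild-type replicate 1 (0.0013).

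Pecam1 encodes CD31, an adhesion molecule of endothelial cell contacts. Its followed probe read 5.26, 5.48, 5.54 and 5.75 in null arrays, against 5.51, 5.56, 5.80 and 5.39 in wild-type arrays. The groups were mixed, and the difference was -0.059 (SE 0.14, limma adjusted p = 0.95), turning to 0.022 without null replicate 1 and to 0.018 without wild-type replicate 3. Cdh5 encodes VE-cadherin, the adherens junction protein of endothelium. Its 1 probe was detected on 0 of 8 arrays, so no level can be given for either group.

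Itm2a, an X-linked gene for a membrane protein known as a marker of brain endothelium, stood beside Flt1. Its followed probe read 8.35, 8.86, 8.70 and 8.44 in null arrays, against 8.90, 8.95, 9.13 and 8.78 in wild-type arrays. Null replicate 2 alone reached into the wild-type range, where wild-type replicate 4 lay below it. The difference was -0.36 (SE 0.14, 95% interval -0.67 to -0.05, limma adjusted p = 0.71), and 4 of 4 null arrays were below the wild-type mean. Without 1 array it ran from -0.45 (without null replicate 2) to -0.28 (without null replicate 1). The arrays that carried the low Itm2a values were null replicates 1 and 4, while those with the lowest Flt1 values were null replicates 2 and 3.

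Mural genes differed in the same direction. Acta2 encodes smooth muscle α-actin, the actin of the contractile cells of arterioles, and its 4 probes were all followed. The first (ILMN_2693895, chromosome 19) read 7.63, 7.54, 7.27 and 7.92 in null arrays, against 8.21, 8.01, 7.95 and 7.89 in wild-type arrays. Null replicates 1 to 3 lay below every wild-type array, and null replicate 4 lay just above the lowest of them. The difference was -0.43 (SE 0.15, 95% interval -0.75 to -0.10, limma adjusted p = 0.70), and leaving out 1 array gave -0.54 (without null replicate 4) to -0.32 (without null replicate 3). The other 3 Acta2 probes, which carry the same symbol, differed by -0.26 (SE 0.19), -0.23 (SE 0.13) and -0.07 (SE 0.12), with a smallest adjusted p of 0.75. The probe at -0.26 (ILMN_2710354) read 5.92, 5.75, 5.02 and 5.85 in null arrays, against 5.64, 6.00, 5.98 and 5.97 in wild-type arrays, and without null replicate 3 its difference was -0.058. The fourth, at -0.07 (ILMN_2710353), has no chromosome or definition in the file. The 4 probes shared a sign and differed in size.

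Rgs5 encodes a regulator of G protein signalling that marks pericytes. It read 6.98, 6.92, 7.06 and 7.22 in null arrays, against 7.07, 7.45, 7.22 and 7.21 in wild-type arrays. Null replicate 4 was level with 2 wild-type arrays, and wild-type replicate 1 lay among the null arrays. The difference was -0.19 (SE 0.12, 95% interval -0.47 to 0.08, limma adjusted p = 0.77), or -0.12 without wild-type replicate 2.

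Pdgfrb encodes the receptor through which pericytes answer PDGF-B. It read 5.02, 5.04, 4.85 and 5.19 in null arrays, against 5.09, 5.27, 5.24 and 5.32 in wild-type arrays, all near the limit of detection. It was detected on 3 of 4 null and 4 of 4 wild-type arrays, the fewest of any followed probe. The difference was -0.21 (SE 0.12, 95% interval -0.46 to 0.05, limma adjusted p = 0.75). Tagln encodes transgelin, an actin-binding protein of smooth muscle. Its 1 probe was detected on 0 of 8 arrays.

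In all, 5 probes fell outside the filter. Beside those of Cdh5 and Tagln, the second Itm2a probe was detected on 0 arrays, the second Flt1 probe on 1 wild-type array (replicate 4) and the second Pecam1 probe on 1 null array (replicate 1). No followed probe was detected on fewer than 7 arrays and no other on more than 1, so the filter at 4 arrays split no close case. For these 5 probes no difference is given.

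**Figure D2:**
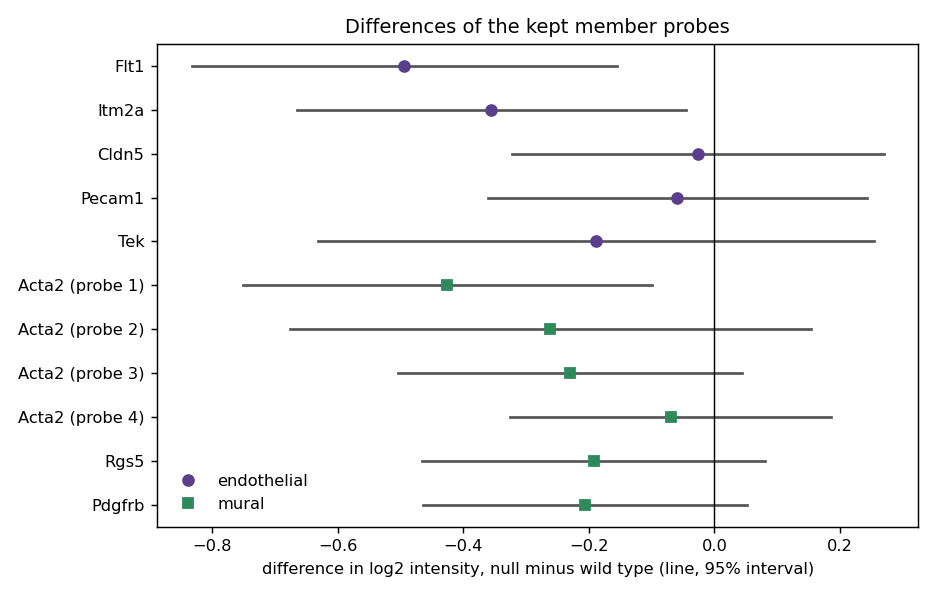
Difference in log2 intensity (null minus wild type) for each of the 11 followed member probes, with its 95% interval as a line, endothelial probes as circles and mural probes as squares. All 11 points lie left of 0, and the interval leaves out 0 for Flt1, Itm2a and the first Acta2 probe alone, before any adjustment for the number of probes.

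Arrays within the null group were not alike. The followed gene was above its own mean over the 8 arrays for 0 of 8 genes on null replicate 1, 2 on null replicate 2, 1 on null replicate 3 and 7 on null replicate 4. In wild-type replicates 1 to 4 it was above for 5, 7, 7 and 4 of 8 genes. Null replicate 4 thus stood with the wild-type arrays by this count. Of the lowest readings of the 8 arrays, null replicate 3 held 4 genes, null replicate 1 held 3 and null replicate 2 held 1. The mean centred level of the 5 endothelial genes was -0.28, -0.03, -0.23 and 0.09 in null replicates 1 to 4, against 0.21, 0.12, 0.20 and -0.08 in wild-type replicates 1 to 4. That of the 3 mural genes was -0.14, -0.19, -0.30 and 0.08 in null arrays, against 0.10, 0.22, 0.11 and 0.12 in wild-type arrays. The groups overlapped for the endothelial level. For the mural level they did not overlap, but null replicate 4 (0.084) lay just below wild-type replicate 1 (0.101). Without null replicate 4 the median difference was -0.31 for the endothelial and -0.27 for the mural genes. The endothelial value came to -0.08 without wild-type replicate 1, to -0.09 without null replicate 3, to -0.12 without null replicate 1 and to -0.29 without wild-type replicate 4.

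Markers of the choroid plexus, the secretory tissue of the ventricle wall beside the striatum, also varied within the null group. Their likeness to the vascular levels was not tested. Null replicate 4 had the highest level of the null group for choroid plexus (2.06), endothelial (0.09) and mural genes (0.08). The order of the other null arrays was not the same. Null replicate 2 had the lowest choroid plexus level (-2.19) with an endothelial level of -0.03. Null replicate 3 had the lowest mural level (-0.30) with a choroid plexus level of -1.20. Of 9 such markers, 2 passed the detection filter, and Kl, Folr1, Otx2, Cldn2, Sostdc1 and F5 did not. Ttr (transthyretin, the main secreted protein of the choroid plexus) read 6.14, 5.68, 6.83 and 13.10 in null arrays, against 11.27, 11.28, 9.72 and 9.22 in wild-type arrays. Null replicate 4 had the highest Ttr of all 8 arrays, and the other 3 null arrays the lowest. Clic6, a chloride channel gene expressed there, differed by -0.72 (SE 0.22, limma adjusted p = 0.70), and Ttr by -2.43 (SE 1.31, adjusted p = 0.75). With the mean centred level of both as a covariate, a fit added after seeing the data, the differences were -0.32 for Flt1, -0.26 for the first Acta2 probe, -0.43 for Itm2a, -0.16 for Pdgfrb and -0.10 for Rgs5. In that fit Tek (0.074), Pecam1 (0.071), Cldn5 (0.026) and the fourth Acta2 probe (0.033) stood above 0, and the endothelial median was 0.026. None of these values passed the threshold with or without the covariate.

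**Figure D3:**
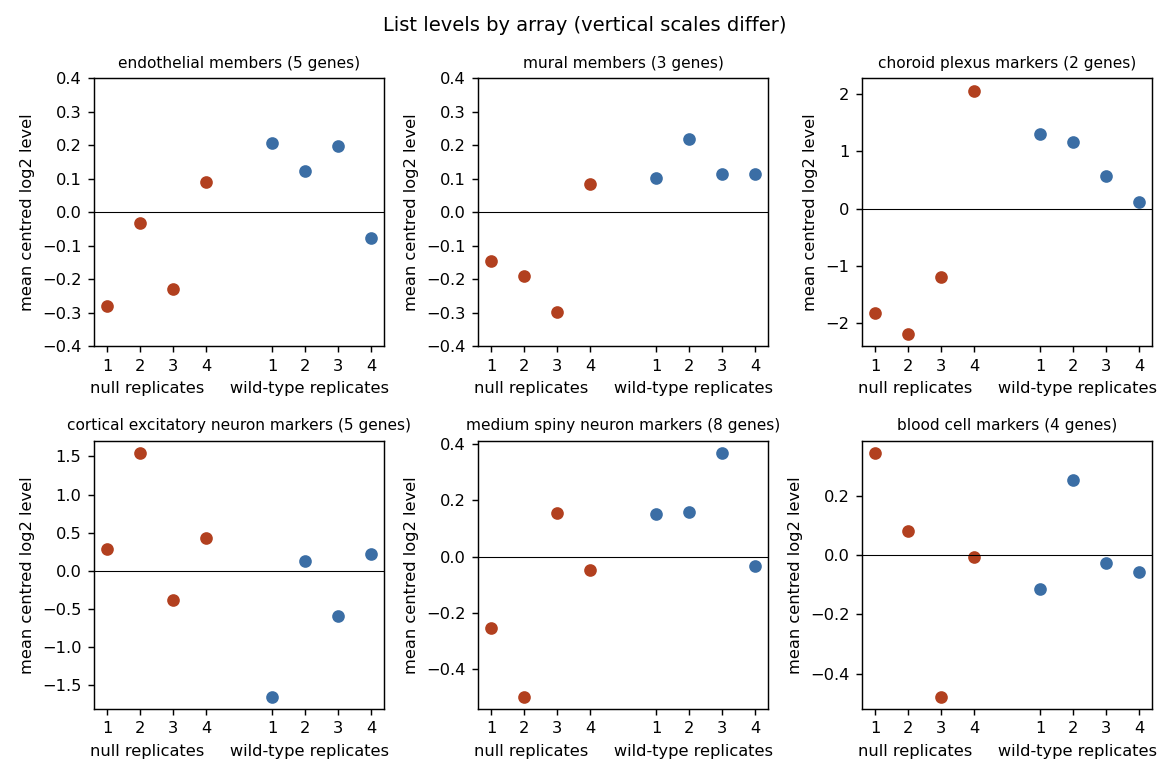
Mean centred log2 level of 6 gene lists on each array, null replicates left and wild-type replicates right, with a vertical scale of its own for all but the endothelial and mural panels, which share one. The choroid plexus panel has null replicates 1 to 3 at -1.83, -2.19 and -1.20 and null replicate 4 at 2.06, above all 4 wild-type arrays.

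Other marker lists overlapped between the groups. Of 9 blood cell markers 4 passed the filter, and their level ran from -0.48 to 0.34 in null and from -0.11 to 0.25 in wild-type arrays. The α-globin gene Hba-a1 differed by -0.22 (SE 0.21), Alas2, which encodes the first enzyme of heme synthesis in red cells, by -0.19 (SE 0.19) and the β-globin gene Hbb-b1 by 0.14 (SE 0.15). Fibroblast and meningeal markers (7 of 11 passed) ran from -0.13 to 0.11 in null and from -0.12 to 0.12 in wild-type arrays. Col1a1, Col3a1 and Lum did not pass the filter, and Col1a2, a fibrillar collagen gene, was detected on 4 null and 1 wild-type arrays, so its wild-type level is mostly below detection and no difference is given. Cortical excitatory neuron markers (5 of 10 passed, 5 of 5 higher in null arrays, median 1.06) ran from -0.38 to 1.54 in null and from -1.65 to 0.22 in wild-type arrays, and their level as a covariate left Flt1 at -0.48, Itm2a at -0.39 and the first Acta2 probe at -0.40. It moved Tek to -0.06, Pecam1 to -0.035 and the endothelial median to -0.11, and, away from 0, Cldn5 to -0.11, the second Acta2 probe to -0.48 and the mural median to -0.30. Medium spiny neuron markers were lower in null arrays in 8 of 8 cases (median -0.25), and their level ran from -0.50 to 0.16 in null and from -0.03 to 0.37 in wild-type arrays. Oligodendrocyte markers were higher in 10 of 10 cases (median 0.29), with levels from -0.11 to 0.36 in null and from -0.96 to 0.17 in wild-type arrays. Astrocyte markers were higher in 8 of 10 cases (median 0.14), with levels from -0.07 to 0.24 in null and from -0.16 to 0.05 in wild-type arrays. Microglial markers were higher in 5 of 9 cases, with levels from -0.07 to 0.12 in null and from -0.03 to 0.06 in wild-type arrays. No gene of these lists passed the adjusted threshold, and the part of these 4 lists in the vascular values was not tested. With the level of Y-linked genes as a covariate, Flt1 differed by -0.68, the first and second Acta2 probes by -0.57 and -0.58, Cldn5 by -0.12 and the X-linked Itm2a by -0.30. The Y-linked level was itself uneven between the groups, so this fit does not separate sex from group.

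Other genes of the vessel wall were examined in 9 lists that name 101 genes, of which 67 passed the filter and are no members. Of these 67, 49 were lower and 18 higher in null arrays (51.5% of all 10008 genes were lower), with a median of -0.11. With limma 0 passed in either direction. At an unadjusted p under 0.05 there were 2 lower and 2 higher, where 3.93% of all genes were lower and 3.04% higher. These counts include dim genes detected mostly in the group where they read higher. Kdr (2 null and 4 wild-type arrays), Ocln and Foxf2 (1 and 3 each) counted as lower. Higd1b (4 and 2) counted as higher, also at the unadjusted level.

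Among the VEGF family, 2 of 5 measured genes were lower and 3 higher (median 0.05). Vegfa, the ligand that PGC-1α raises in muscle, differed by 0.05 (SE 0.19, limma adjusted p = 0.97), Vegfb by 0.26 (SE 0.14) and the signalling receptor gene Kdr by -0.14 (SE 0.15). Kdr was dim, detected on 2 of 4 null and 4 of 4 wild-type arrays, so its size of difference is not set against that of Flt1. Of the angiopoietin and Tie list, 3 of 3 were lower (median -0.26): Angpt2, a ligand of Tek that loosens vessels, at -0.22 (SE 0.19), the phosphatase gene Ptprb at -0.26 (SE 0.18) and the transcription factor gene Foxo1 at -0.30 (SE 0.17). Angpt1 and Tie1 did not pass the filter.

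Of the blood-brain barrier transporters, 5 of 7 were lower, with a median of -0.27. Slc2a1 encodes GLUT1, the glucose transporter of brain endothelium. It read 9.58, 9.30, 9.43 and 9.71 in null arrays, against 9.99, 9.88, 9.80 and 9.87 in wild-type arrays. Its groups did not overlap, which held for 1 of the 67 genes, while 2.75% of all genes were lower and 1.5% higher in null arrays without overlap. It differed by -0.38 (SE 0.12, limma adjusted p = 0.70). Slc38a5, an amino acid transporter gene, differed by -0.27 (SE 0.14) and Slco1a4, an organic anion transporter of barrier endothelium, by -0.27 (SE 0.16). The organic anion transporter gene Slc22a8 differed by -0.30 (SE 0.16) but was dim, detected on 3 of 4 arrays in each group. The 2 higher genes were Tfrc at 0.22 (SE 0.17) and Mfsd2 at 0.10 (SE 0.12). Of the junction genes, 6 of 8 were lower (median -0.11), with Esam at -0.15 (SE 0.15) and Icam2, an adhesion molecule gene, at -0.22 (SE 0.18). The scaffold gene Tjp1, for a zonula occludens protein that many cell types make, stood at 0.29 (SE 0.13).

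Further endothelial identity genes were lower in 11 of 13 cases (median -0.14). The endothelial transcription factor genes Sox18 and Sox17 differed by -0.45 (SE 0.21) and -0.38 (SE 0.18), the guidance receptor gene Robo4 by -0.34 (SE 0.16) and Vwf, for von Willebrand factor, by -0.27 (SE 0.19). Sox18 had the largest difference of the list, with a limma adjusted p of 0.72. Genes of the basement membrane list, which also holds Sparc (-0.15) and Sparcl1 (-0.08), were lower in 8 of 8 cases (median -0.17). Among them were Nid2 (nidogen 2) at -0.38 (SE 0.14) and Hspg2 (perlecan) at -0.30 (SE 0.15). Lamb1-1 (a laminin β chain) stood at -0.21 (SE 0.16) and Lamc1 (a laminin γ chain) at -0.19 (SE 0.17). The mean centred level of the basement membrane list ran from -0.19 to -0.02 in null and from 0.002 to 0.18 in wild-type arrays. The smallest limma adjusted p in that list was 0.70.

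Of 7 pericyte markers 5 were lower, with a median of -0.07. Cspg4, which encodes the NG2 proteoglycan of pericytes and oligodendrocyte precursors, differed by -0.19 (SE 0.12) and Vtn (vitronectin) by -0.19 (SE 0.16), while Higd1b, a pericyte gene, stood at 0.50 (SE 0.19, limma adjusted p = 0.70). Higd1b was detected on 4 null and only 2 wild-type arrays, so it passed the filter through the group in which it is higher. Of 7 smooth muscle contractile genes 3 were lower and 4 higher, with a median of 0.00075. Tpm1, a tropomyosin gene, differed by -0.21 (SE 0.12), Tpm2 by 0.35 (SE 0.25), the myosin light chain kinase gene Mylk by 0.28 (SE 0.28) and Srf, for serum response factor, by -0.06 (SE 0.15). The more specific smooth muscle genes Myh11, Cnn1, Lmod1 and Myocd did not pass the filter, as Tagln did not, so that Acta2 was the one member with a contractile role that could be followed. Of 9 genes of PDGF-B and Notch signalling to mural cells 6 were lower (median -0.07), with Pdgfb at -0.04 (SE 0.18), Pdgfa at 0.25 (SE 0.12) and Notch1 at -0.22 (SE 0.14).

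**Figure D4:**
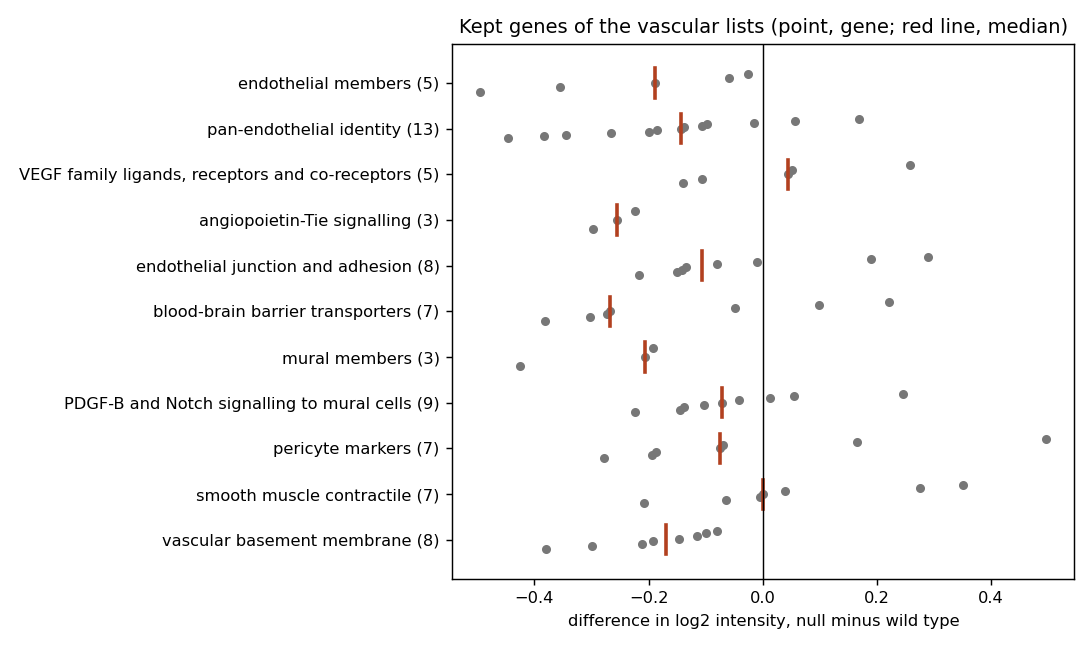
Difference in log2 intensity (null minus wild type) of each measured gene in the 2 member classes and 9 other vascular lists, with the number of genes in brackets and the median as a red line. All genes of the basement membrane, angiopoietin and member lists lie left of 0, while VEGF, pericyte and smooth muscle genes lie on both sides.

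The non-member genes whose values over the 8 arrays lay closest to the endothelial level were Itgb1bp1 (Pearson's r = 0.93, Spearman's rho = 0.88), which encodes a regulator of β1 integrin, and Cul7 (r = 0.92), Cdh7 (r = 0.91), Rgl1 (r = 0.91) and Ckmt1 (r = 0.90). Closest to the mural level were Wdr18 (r = 0.96, rho = 0.95), Wbp2 (r = 0.95), Pop7 (r = 0.95), Sstr5 (r = 0.95) and Puf60 (r = 0.95). No gene of the vascular lists was among these 10. They were picked as the highest of all genes with a named symbol over 8 arrays that share a chip and a group difference, so no p is given.

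**Figure D5:**
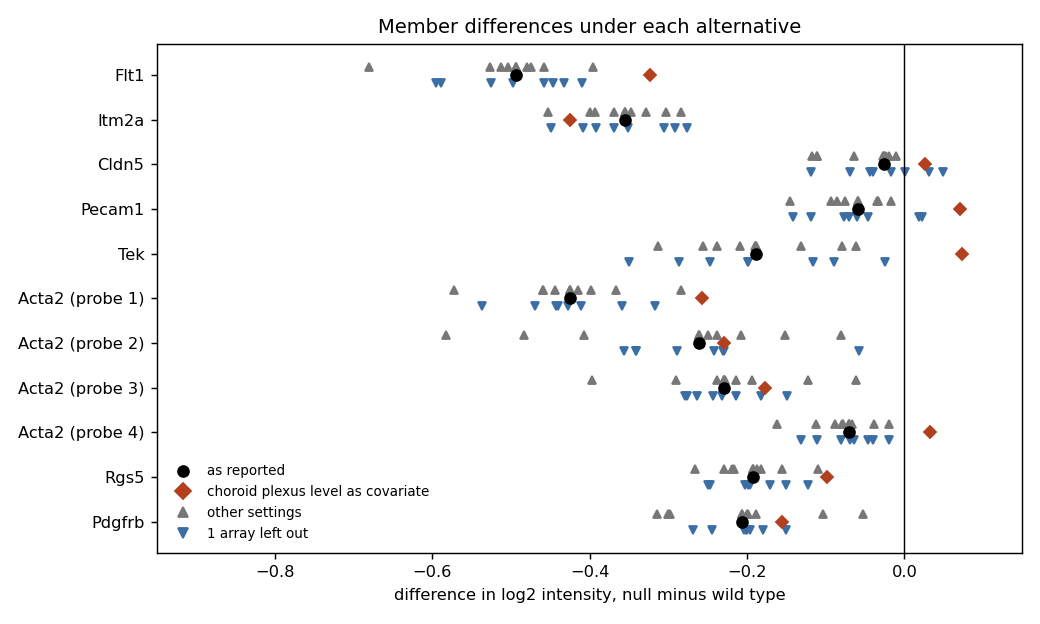
Difference in log2 intensity (null minus wild type) of the 11 followed member probes as reported (black), with the choroid plexus level as a covariate (red diamonds), under other processing settings (grey) and with 1 array left out (blue). Flt1, Itm2a and the first Acta2 probe stay left of 0 throughout, and Cldn5, Pecam1, Tek and the fourth Acta2 probe cross 0 in at least 1 fit.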

How the data were processed

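Striatal RNA, extracted with Trizol, was labelled with biotin as cRNA, per the labels' protocols. The submitters' processing notes name GenomeStudio alone. The deposited table gives raw intensity and detection p-values for 25697 probes, not normalized, per the file headers. The authors' processed intensity values, with method not given in the sources used here, served as an alternative above a floor of 16. All per-sample columns were used.

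Raw values went through neqc (limma 3.58.1, R 4.3.3; offset 16). The 13413 probes detected (p under 0.05) on at least 4 of 8 arrays were fitted with lmFit and eBayes, null minus wild type, with Benjamini-Hochberg adjustment over these probes and a threshold of 0.05. The fit was tested on simulated data. The median SE was 0.15, since 4 arrays a group limit the precision.

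The members, lists and alternatives were chosen with earlier results of these data known. Of 195 list genes 184 were found, 4 by an older symbol (Mfsd2, Fkhl18, Lamb1-1 and Jarid1d). All member probes are described. Other lists contribute up to 4 genes with the smallest p. Vegfa, Pdgfb, Ocln, Tfrc, Mfsd2, Sparc and Sparcl1 were named outside this rule. The brightest probe stands for any other gene. A list level averages its genes after centring each on its mean over the arrays. The alternatives changed the background step, offset, normalization, filter, array weights, covariates and arrays included, or added the replicate number as a block.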

Additional observations from a re-analysis of the deposited data

Results flagged for a closer look

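In groups of 4 arrays, 5 of 62 sets of values held an array that stood far from its group by Dixon's test; chance flags about 1 in 20. The Acta2 probe ILMN_2710354 read 5.64 in wild-type replicate 1, against 5.97 to 6.00 in the other 3 wild-type arrays. The mural level was 0.22 in wild-type replicate 2, against 0.10 to 0.12 in the other 3. The level of oligodendrocyte markers was -0.96 in wild-type replicate 3, whose nearest neighbour was at 0.11. The level of Y-linked genes was -0.90 in null replicate 3, with the other null arrays at 1.12 or above, and 0.71 in wild-type replicate 2, with the other wild-type arrays at -1.01 or below.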

How the results depend on the processing

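The 20 alternatives gave 0 probes past the adjusted threshold in each direction with limma, as reported, and 0 of 219 member values passed. Of these 219, 9 turned sign. In the fit added after seeing the data, with the choroid plexus level as covariate, they were Cldn5 (0.026), Pecam1 (0.071), Tek (0.074) and the fourth Acta2 probe (0.033), and the endothelial median moved to 0.026. With 1 array left out, Cldn5 turned in 3 fits and Pecam1 in 2. Cldn5 ran from -0.12 to 0.050 and Pecam1 from -0.14 to 0.022 over these fits. The endothelial median ran from -0.31 to -0.08 and the mural median from -0.27 to -0.20 with 1 array left out. With no background correction the endothelial and mural medians shrank to -0.08 and -0.11. Array weights took the endothelial median to -0.31, and the authors' processed values the mural median to -0.31. Same-numbered arrays did not deviate together in every pair (correlations of -0.004 to 0.23), so the numbers were not taken as pairs; the replicate block left the medians at -0.19 and -0.21 and 0 probes past the threshold. Pdgfrb and the mural median have no value with detection required on all 8 arrays. Low signal limits Pdgfrb, Pecam1, the Acta2 probes after the first and, outside the members, Kdr, Slc22a8, Nid2, Lamb1-1, Higd1b and Col1a2.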
